A study of Danio rerio with 11 samples.

Results

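Genes of 9 apolipoproteins and 1 retinol carrier, all known from the zebrafish yolk syncytial layer, were followed through RNA libraries of embryo tails that carried mutations in lsd1 or were wildtype. The 10 genes were taken by name from a table of 23617 genes: apoa1a, apoa1b, apoa2, apoba, apobb.1, apoc1, apoc2, apoea, apoeb and rbp4. All 10 were found, 8 by symbol, and apoba and rbp4 through the symbols of their human orthologs (APOB, ENSDARG00000042780, and RBP4, ENSDARG00000101199). All 10 passed the filter on low counts, with a lowest count of 102 in any library, for apoc2. They were taken as a measure of how much yolk layer RNA each tail pool held. Whether all of their RNA came from that layer was not tested. The 10 are called the yolk layer carrier genes below.

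The libraries were made from total RNA of tails cut behind the yolk sac at 24 hours post fertilisation, with 5 tails in each pool. There were 3 libraries of mutants and 3 of wildtypes from line 36433. From line 23095 there were 3 of mutants (replicates 1, 2 and 4) and 2 of wildtypes. The wildtypes were siblings of the mutants. Lsd1, encoded by kdm1a, is a histone demethylase that acts largely in transcriptional repression. The lesion of each line is not given in the labels, nor whether the pools came from separate clutches, so p-values measure the spread between these pools only.

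The yolk syncytial layer is the nucleated layer around the yolk of a fish embryo, and it feeds the embryo before the liver and gut take over. It packs yolk lipid onto apolipoprotein B, adds smaller exchangeable apolipoproteins, and releases the particles into the circulation. It also releases retinol bound to Rbp4, the carrier that delivers vitamin A to tissues. Tails cut behind the yolk sac lie next to the yolk extension, which this layer also covers.

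Library totals ranged from 8204459 to 17195875 counts, the lowest in mutant replicate 2 of line 23095. In CPM, which are counts scaled for library size and composition, kdm1a stood at 36.9, 34.2 and 34.8 in line 36433 mutants and at 162, 155 and 135 in their wildtype siblings. Mutants of line 23095 had 129.8, 170.5 and 130.3 CPM of kdm1a, and wildtypes 124 and 142 CPM. The kdm1a level thus separated the genotypes of line 36433 and does not check the labels of line 23095. The tail tissue was represented by tbxta, a notochord and tailbud factor (49.3 to 62.0 CPM), the muscle factor gene MYOD1 (84.5 to 129 CPM) and the posterior gene HOXB13 (5.93 to 14.8 CPM). Other yolk layer genes were present too, with the transferrin gene tfa at 288 to 1394 CPM, the protease inhibitor gene a2ml at 55.5 to 249 CPM and MTTP, which loads lipid onto apolipoprotein B, at 46.3 to 160.4 CPM. The hepatocyte gene fabp10a was at 0 to 0.507 CPM. Neither mxtx2 nor ttr, a regulator and a carrier used as yolk layer markers, had a match in the count table, and they were not analysed here.

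Together the yolk layer carrier genes took between 0.799% and 3.17% of all counts in a library. Their summed level was 18225, 32487 and 30819.6 CPM in wildtype replicates 1, 2 and 3 of line 36433, and 22558, 24704 and 14843 CPM in its mutants. Wildtypes of line 23095 summed to 25143 and 14905 CPM, and mutant replicates 1, 2 and 4 to 7525, 13022 and 14746 CPM. The highest sum stood in a wildtype of line 36433 and the lowest in a mutant of line 23095. The sums of mutants and wildtypes overlapped in line 36433. In line 23095 they did not, but the highest mutant and the lowest wildtype lay close together. Without apoba and apobb.1 the sums overlapped in line 23095 too. They were then 7090 and 4438 CPM in its wildtypes and 2458, 4071 and 4476 CPM in its mutants. Group means were 27177 ± 7798 (SD, n = 3) and 20702 ± 5186 (n = 3) in the wildtypes and mutants of line 36433, and 20024 ± 7240 (n = 2) and 11764 ± 3771 (n = 3) in those of line 23095. Libraries of 1 group differed from each other by up to 1.96 times, in the mutants of line 23095. In bulk samples, a smaller amount of a tissue, or fewer of its cells, and less RNA made by it cannot be told apart. Here this includes how much yolk layer each cut took into a pool, whose part was not tested.

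**Figure D1:**
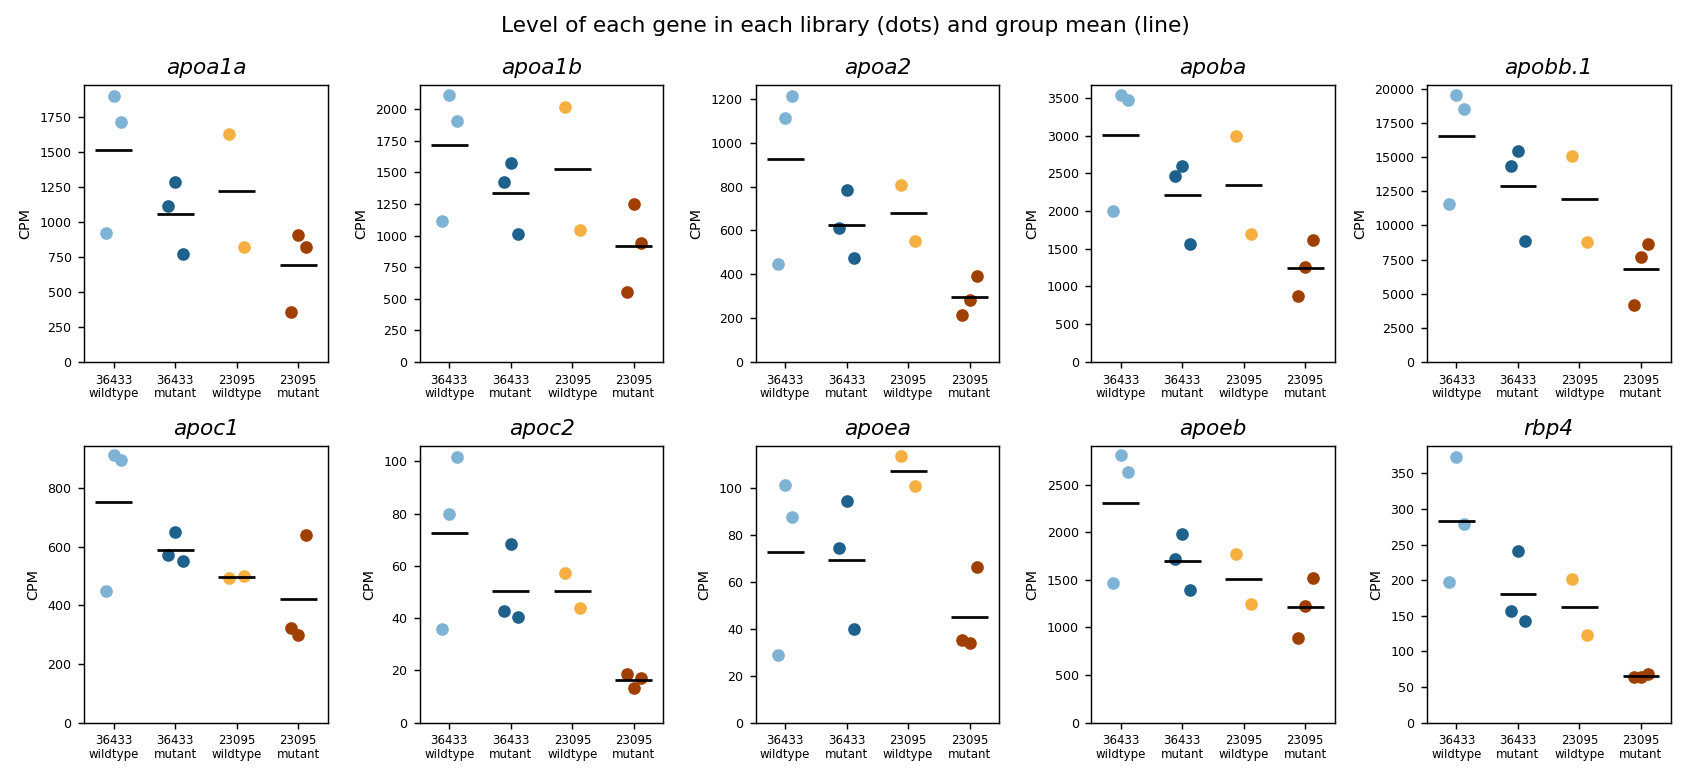
Level of each of the 10 yolk layer carrier genes in CPM (vertical axis, starting at 0) in each library (dots) of the 4 groups, with the group mean as a line. The mutants of line 23095 have the lowest mean for 10 of 10 genes, and wildtype replicate 1 of line 36433 is the lowest of its group for 10 of 10.

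Genes of apolipoprotein B, the large structural protein of each triglyceride-rich particle, gave most of this signal. CPM are not scaled for transcript length, so a share of the sum is a share of counts and not of transcripts. The gene apobb.1 alone made up 55.7% to 63.7% of the summed level. It stood at 11566, 19533 and 18512 CPM in the wildtypes of line 36433 and at 14379.7, 15425 and 8848 CPM in the mutants. In line 23095 apobb.1 was at 15059 and 8767 CPM in the wildtypes and at 4189, 7690.2 and 8655 CPM in the mutants. The groups overlapped in line 36433, and in line 23095 the mutants lay below the wildtypes by a narrow margin. For apoba the wildtypes of line 36433 held 1996, 3539 and 3473 CPM and the mutants 2466, 2599 and 1561 CPM. Levels of apoba in line 23095 were 2994 and 1699 CPM in the wildtypes against 878, 1261 and 1615 CPM in the mutants, again without overlap.

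Among the genes of high-density lipoprotein, apoa1a and apoa1b encode apolipoprotein A-I, the protein that accepts cholesterol from cells. In line 36433 apoa1a was at 921, 1905 and 1714 CPM in the wildtypes and at 1116, 1288 and 776 CPM in the mutants. In line 23095 it was at 1629.8 and 824 CPM in the wildtypes and at 354, 905 and 825 CPM in the mutants. The copy apoa1b followed it closely, at 557 to 1247 CPM in the mutants of line 23095 and 1009.5 to 2114 CPM in the other 8 libraries. Both overlapped between genotypes in either line. The levels of apoa2, which codes for a second protein of these particles, were 449, 1114 and 1214 CPM in the wildtypes of line 36433 and 611, 785 and 476 CPM in its mutants. In line 23095 apoa2 was at 806 and 554 CPM in the wildtypes and at 215, 281 and 393 CPM in the mutants, which lay below both wildtypes.

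The exchangeable apolipoproteins C act on lipases: in mammals apolipoprotein C-II activates lipoprotein lipase and apolipoprotein C-I inhibits it. The apoc2 level in line 36433 was 36.0, 79.8 and 102 CPM in the wildtypes and 42.6, 68.4 and 40.5 CPM in the mutants. Wildtypes of line 23095 had 57.1 and 43.9 CPM of apoc2, and mutants 18.5, 13.2 and 17.3 CPM. The mutants of line 23095 were thus below every other library for apoc2. The gene apoc1 behaved otherwise, with 493 and 501 CPM in the wildtypes of line 23095 and 324, 300.0 and 639.9 CPM in its mutants, so that 1 mutant library lay above both wildtypes. In line 36433 apoc1 was at 449, 914 and 897 CPM in the wildtypes and 571, 649 and 551 CPM in the mutants.

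Apolipoprotein E is a ligand of the low-density lipoprotein receptor family. Its gene apoea was at 28.9, 101 and 87.7 CPM in the wildtypes and 74.3, 94.1 and 39.8 CPM in the mutants of line 36433. In line 23095 it was at 114 and 101 CPM in the wildtypes and 35.2, 33.7 and 66.2 CPM in the mutants, with no overlap. The second copy, apoeb, which zebrafish microglia are known to express too, was at 1465, 2815 and 2631 CPM against 1717, 1978 and 1399 CPM in wildtypes and mutants of line 36433. In line 23095 apoeb was at 1771 and 1248 CPM in the wildtypes and 891, 1227 and 1522 CPM in the mutants, which overlapped.

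The retinol carrier gene rbp4 was at 197, 373 and 279.6 CPM in the wildtypes of line 36433 and at 157, 241 and 143 CPM in its mutants. In line 23095 it was at 202 and 123 CPM in the wildtypes and at 63.6, 64.5 and 68.9 CPM in the mutants. Those 3 mutant libraries were nearly equal for rbp4 and lay below the other 8, although their summed level of the 10 genes differed.

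The mean over libraries was lowest in the mutants of line 23095 for 10 of 10 genes, and highest in the wildtypes of line 36433 for 9. The exception was apoea, with its highest mean in the wildtypes of line 23095. The highest group mean exceeded the lowest by 1.79 times for apoc1, the least, and by 4.31 and 4.44 times for rbp4 and apoc2. Neighbouring groups in this order overlapped at each step for 5 of 10 genes, apoa1a, apoa1b, apoba, apoea and apoeb. For 4 genes, apoa2, apobb.1, apoc2 and rbp4, the mutants of line 23095 were apart from the group next above them, and for apoc1 the gap lay between the mutants of line 36433 and the wildtypes of line 23095. Of all genes, 17.4% had the mutants of line 23095 below its wildtypes and 10.8% had them below the mutants of line 36433. The shares of all genes with the orders described here were not computed.

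Single libraries shifted the set as a whole. Wildtype replicate 1 of line 36433 was the lowest wildtype of its line for 10 of 10 genes and lay below every mutant for 4 of them, while wildtype replicates 2 and 3 were above every mutant for 9. Mutant replicate 3 of that line was the lowest and replicate 2 the highest mutant for 10 of 10. In line 23095, wildtype replicate 1 exceeded replicate 2 for 9 genes, and mutant replicate 1 was the lowest mutant for 7. The shares of all genes with these orders of libraries were not computed either. The 45 pairs of these genes had Pearson's r between 0.550 (apoea and rbp4) and 0.989 (apoa1a and apoa1b) over the 11 libraries, with a median of 0.868. With each group's mean removed, r ran from 0.421 to 0.984 with a median of 0.801. These are descriptions over libraries that share depth and scaling, and some of the genes are close copies whose reads may be shared.

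The comparison within each line asked whether mutant tails held another level of the carrier transcripts than their wildtype siblings. In line 36433 the 10 genes were measured lower in the mutants, by a log2 fold change between -0.65 (SE 0.25, rbp4) and -0.06 (SE 0.41, apoea), and none passed the test. Among all 20886 genes tested with edgeR's quasi-likelihood test and Benjamini-Hochberg adjustment over all of them, 0.168% were called at an adjusted p under 0.05 in this line. The smallest adjusted p of the 10 in edgeR's test was 0.66, for rbp4. Of the 10, rbp4 alone was under 0.05 before adjustment, as were 2.64% of all genes in the lower direction. The median log2 fold change of the 10 was -0.44, against -0.02 over all tested genes, and 10 of 10 were below 0, as were 52.3% of all genes. Genes that move together over the libraries are not independent, so counts of signs, here and below, are descriptions only. No gene of the 10 had its mutant and wildtype libraries apart, against 13.5% of all genes. The median moved with single libraries of this line. It was -0.67 without wildtype replicate 1, -0.29 without wildtype replicate 2, -0.30 without wildtype replicate 3 and -0.31 without mutant replicate 3, and none of the 10 was called in any of these fits.

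In line 23095, apoc2 and rbp4 fell in the mutants and the other 8 genes did not pass the test. The called genes were 1.63% of all genes tested, 0.934% in the lower direction. The log2 fold change of apoc2 was -1.62 (SE 0.35, 95% interval -2.38 to -0.86, adjusted p = 0.0430), and the level fell by 67.4%. For rbp4 it was -1.31 (SE 0.28, interval -1.92 to -0.70, adjusted p = 0.0425), and the level fell by 59.7%. The measured changes of apoea (-1.24, SE 0.45, adjusted p = 0.181), apoa2 (-1.20, SE 0.37, 0.122) and apoba (-0.91, SE 0.33, 0.181) did not pass. For apoa1a, apobb.1 and apoa1b the log2 fold change was -0.82, -0.80 and -0.74 (adjusted p = 0.331, 0.269 and 0.323). The smallest were those of apoeb at -0.32 (SE 0.29) and apoc1 at -0.24 (SE 0.33).

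The median of the 10 was -0.86 in line 23095, against 0.02 over all genes, and 10 of 10 were below 0, as were 48% of all genes. Without wildtype replicate 1 of this line the median was -0.40, with apoa1a at -0.24 and apoba at -0.44, and without wildtype replicate 2 it was -1.24. Mutant libraries lay below both wildtypes for 6 of the 10, apoa2, apoba, apobb.1, apoc2, apoea and rbp4, and for 17.4% of all genes. Before adjustment 6 of the 10 were under 0.05 and lower, as were 8.91% of all genes. Both calls depended on single libraries, including those of the other line that enter the estimate of spread. With 1 of the 11 libraries left out in turn, apoc2 stayed under the threshold in 3 of 11 fits (adjusted p from 0.0140 to 0.389) and rbp4 in 4 of 11 (0.0235 to 0.468). The fits that kept apoc2 were those without mutant replicate 1 of line 23095 or without wildtype replicate 1 or 3 of line 36433. Those that kept rbp4 were without mutant replicate 2 or wildtype replicate 1, 2 or 3 of line 36433. The log2 fold changes lay between -1.80 and -1.41 for apoc2 and between -1.62 and -0.91 for rbp4, with the highest p of each found without wildtype replicate 1 of line 23095. With only the 5 libraries of line 23095 in the fit, none of the 10 was called, but only 0.0299% of all genes were.

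**Figure D2:**
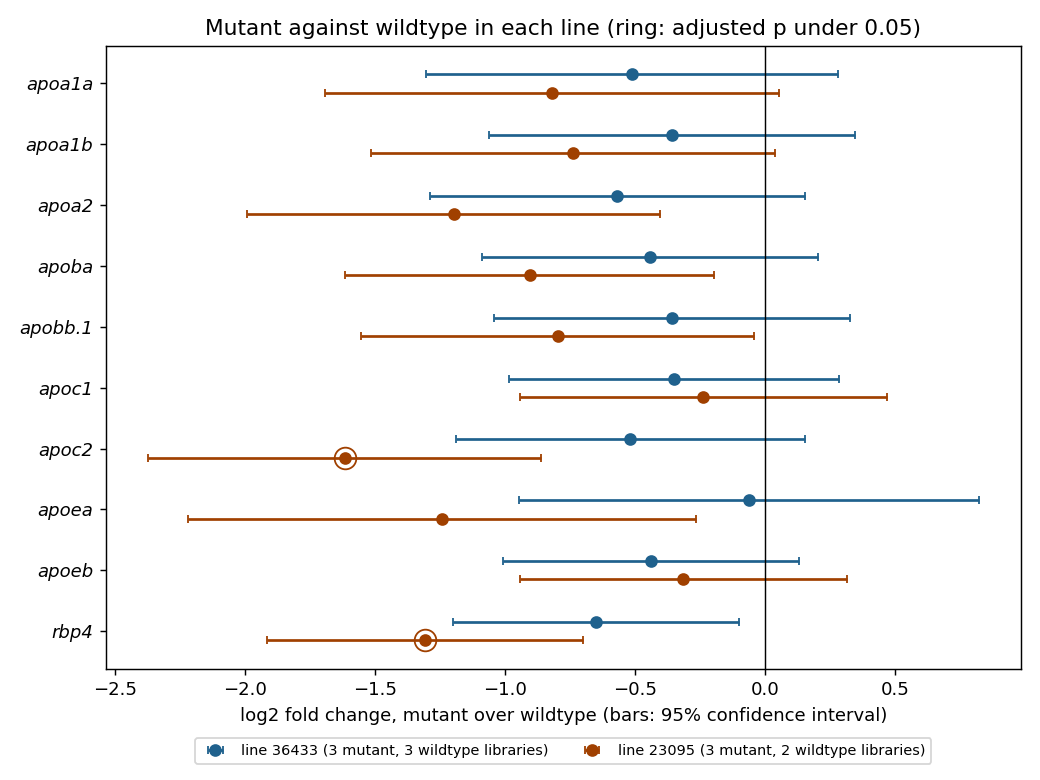
Log2 fold change of mutant over wildtype (horizontal axis) for each gene in line 36433 (blue) and line 23095 (brown), with 95% intervals as bars and rings around adjusted p under 0.05. All 20 points lie at or below -0.06, and the ringed ones are apoc2 and rbp4 in line 23095.

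In the authors' deposited table for line 23095, apoc2 had a log2 fold change of -1.24 (adjusted p = 0.000800), rbp4 -1.09 (0.00118) and apoa2 -0.91 (0.0299). Each of these fold changes lay closer to 0 than edgeR's above. The estimator and test behind them are not given in the sources used here, so sizes and p-values are not directly comparable. They come from the same series and are no independent evidence. The remaining 7 were above 0.05 in the authors' deposited table, where 968 of the 20846 genes with an adjusted p were under 0.05. For line 36433, the authors' deposited table gave none of the 10 under 0.05, from 0.480 for rbp4 to 0.993 for apoea. There 122 of 21304 genes were under 0.05.

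Averaged over both lines with equal weight, apoc2 and rbp4 were called, with log2 fold changes of -1.07 (SE 0.23, adjusted p = 0.0356) and -0.98 (SE 0.19, 0.0214), where 2.33% of all genes were called, 1.03% in the lower direction. The average uses the libraries of both comparisons above and is no further evidence beside them. The next was apoa2 at -0.88 (adjusted p = 0.0879), and the median of the 10 was -0.66, or -0.41 without wildtype replicate 1 of line 23095. With 1 library left out, rbp4 stayed called in 8 of 11 fits and lost its call without wildtype replicate 1 of line 23095 or mutant replicate 1 or 3 of line 36433 (adjusted p up to 0.152). For apoc2 the call stayed in 3 of 11, without mutant replicate 1 of line 23095 or without mutant replicate 2 or wildtype replicate 1 of line 36433 (0.00334 to 0.192 over the 11). None of the 10 passed the test of the difference between the lines, in which 0.00958% of all genes were called. The largest differences (line 23095 minus line 36433) were -1.18 for apoea (SE 0.61, adjusted p = 0.706) and -1.10 for apoc2 (SE 0.47, 0.639, unadjusted p = 0.0357). For apoc2 the 95% interval of that difference was -2.11 to -0.09, and for rbp4 it was -1.48 to 0.16 around -0.66. The lower levels of apoc2 and rbp4 in line 23095 are therefore not shown to be particular to that line.

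Between the wildtypes of the lines no gene of the 10 was called, where 0.393% of all genes were. The log2 difference of line 23095 from line 36433 ran from -0.80 for rbp4 (SE 0.29, adjusted p = 0.243) to 0.56 for apoea (SE 0.45, 0.62). Between the mutants, apoc2 (-1.62, SE 0.33, adjusted p = 0.0331) and rbp4 (-1.46, SE 0.26, 0.0194) were lower in line 23095, where 1.13% of all genes were called, 0.637% lower. With 1 library left out, neither stayed under the threshold without any 1 of the 3 mutants of line 23095 or without mutant replicate 2 of line 36433, where the adjusted p was 0.142 for apoc2 and 0.0911 for rbp4. The apoc2 call was also lost without mutant replicate 1 or 3 of line 36433. Mutant libraries of line 23095 lay below all those of line 36433 for 4 of the 10, apoa2, apobb.1, apoc2 and rbp4, and for 10.8% of all genes. The median of the 10 was -0.72. These contrasts share libraries with those within lines.

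The balance among the genes also varied. As a share of the counts of all 10, rbp4 took 0.804% and 0.828% in the wildtypes of line 23095 and 0.845%, 0.495% and 0.467% in the mutants, so the groups overlapped. In line 36433 its share was 1.08%, 1.15% and 0.907% in the wildtypes and 0.696%, 0.977% and 0.961% in the mutants. For apoc2 the share was 0.227% and 0.294% in the wildtypes of line 23095 and 0.246%, 0.101% and 0.117% in the mutants. Mutant replicate 1, the library with the lowest summed level, thus had shares of both above the lower wildtype share, and the other 2 mutants below it. The share of apoc1 was 1.96% and 3.36% in the wildtypes and 4.31%, 2.30% and 4.34% in the mutants of that line.

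The genes whose pattern was most like that of the yolk layer carrier genes were ranked by Pearson's r between their log2 CPM and the mean standardised log2 CPM of the 10, over 11 libraries. The ranking took in 16407 genes whose log2 CPM averaged 1 or more. The closest was FGG, a fibrinogen chain gene (r = 0.984, Spearman's rho = 0.964). It was followed by ces2a, a carboxylesterase gene (0.981), c8a of the complement system (0.978), HAO2, a hydroxyacid oxidase gene (0.975), and fbp1b, a gluconeogenic enzyme gene (0.972). PLA2G12B, known in lipoprotein secretion (0.969), the fibrinogen gene FGB (0.968), the mitochondrial gene GATC (0.968), the selenium carrier gene selenop (0.967) and zgc:194398 (0.965) completed the 10. Without the libraries with the highest and lowest carrier levels, wildtype replicate 2 of line 36433 and mutant replicate 1 of line 23095, r for these genes was 0.934 to 0.984. With each group's mean removed, FGG (r = 0.988), selenop (0.975) and ces2a (0.965) led, and CHPT1, CLTB, gpx4a and ambp entered the first 10. With group means kept, r of CLTB was 0.823 over the 11 libraries and 0.629 without the 2 libraries named above. For CHPT1, gpx4a and ambp it was 0.938, 0.901 and 0.919 without them. In all, 99 genes had r of at least 0.9.

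**Figure D3:**
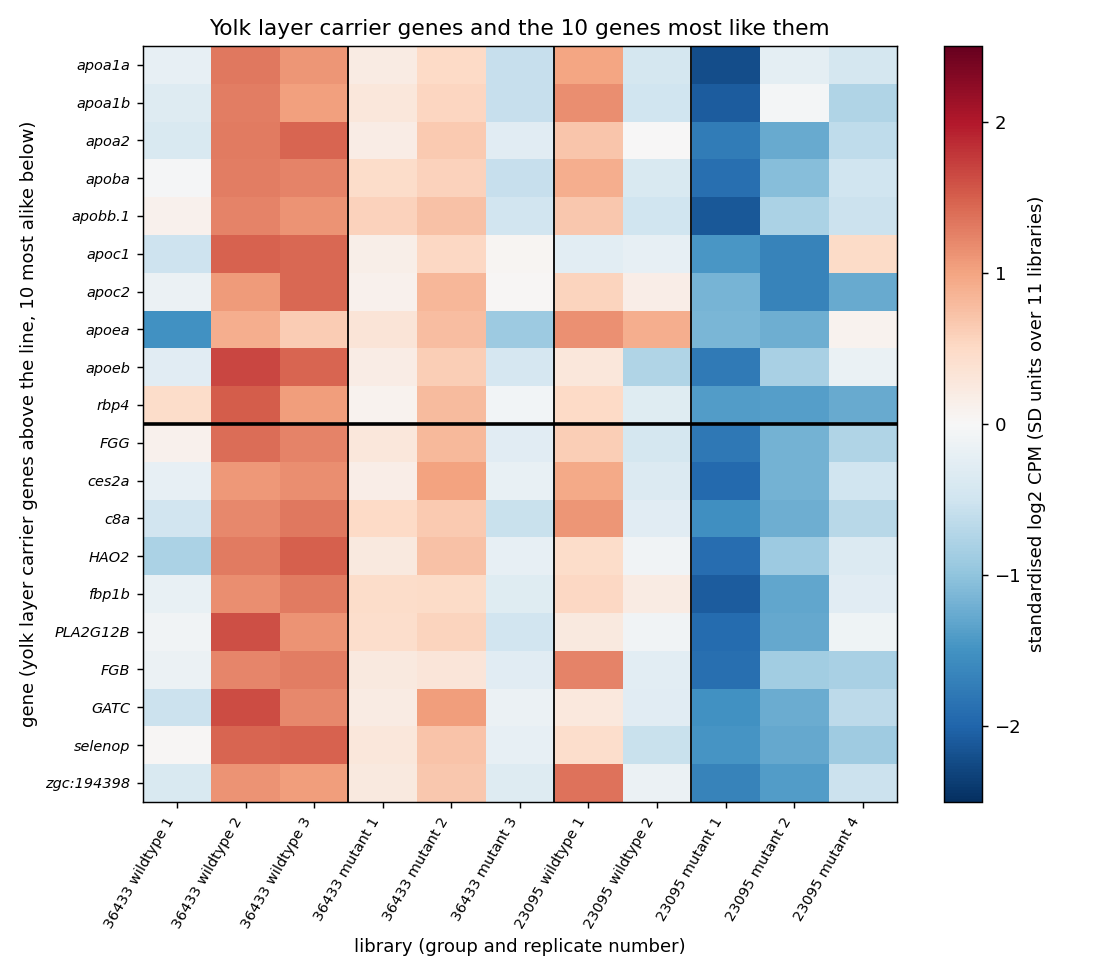
Standardised log2 CPM (colour, in SD units over 11 libraries) of the 10 yolk layer carrier genes (above the line) and the 10 genes most like them (below), by library. Wildtype replicates 2 and 3 of line 36433 are high and mutant replicate 1 of line 23095 is low in both blocks. The lower genes were picked for their likeness over these same libraries, so the likeness of the blocks follows from the choice.

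Other genes of the same pathway were taken from lists. Of 9 other apolipoprotein genes tested, 9 were below 0 in either line, as were 52.3% of all genes in line 36433 and 48% in line 23095, with list medians of -0.48 in line 36433 and -0.74 in line 23095. Of these, 3 fell in line 23095, apof (-1.87, SE 0.39, adjusted p = 0.0375), apoa4b.3 (-1.64, SE 0.37, 0.0471) and apobb.2 (-1.62, SE 0.36, 0.0461), and none in line 36433. Of all genes, 0.934% fell in line 23095 and 0.168% were called in either direction in line 36433. The gene apof codes for a lipoprotein protein that inhibits lipid transfer in mammals, and stood at only 0.518 to 3.01 CPM. In the average of the lines apof (-1.51) and apoa4b.3 (-1.13) were called, where 1.03% of all genes fell. Their calls in the average stayed in 10 of 11 fits with a library left out for apof and in 3 for apoa4b.3. Reads of apobb.2 may be shared with its paralog apobb.1, so its value is uncertain. With 1 library left out, the line 23095 call stayed in 5 of 11 fits for apof, 2 for apoa4b.3 and 4 for apobb.2, which was at -0.95 without wildtype replicate 1 of that line. Of these and the following lists, 10 genes were called in line 23095. None of them passed with only the libraries of that line in the fit, where 0.0299% of all genes did.

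No gene of lipoprotein assembly and secretion was called, of 16 tested, where 1.63% of all genes were called in line 23095 and 2.33% in the average, and the list medians were -0.25 and -0.42 in lines 36433 and 23095. The smallest adjusted p in the average of the lines was that of SOAT2, which esterifies cholesterol (-0.56, SE 0.15, 0.0723), followed by sar1ab of the vesicle coat (-0.64, 0.115), SOAT1 (-0.47, 0.182) and sec23a (-0.29, 0.184). MTTP was measured at -0.43 in line 36433 (adjusted p = 0.815) and -0.58 in line 23095 (0.389). Of 17 genes of receptors, lipases and lipid transfer, none was called, and the medians of -0.04 and -0.09 were close to those of all genes. Here ABCA1, the cholesterol exporter that loads apolipoprotein A-I, was measured at 0.43 in the average (adjusted p = 0.0911) and the receptor adaptor gene ldlrap1a at 0.37 (0.0945). The transfer protein gene CETP (-0.49, 0.361) and LCAT, the cholesterol-esterifying enzyme of plasma (-0.33, 0.378), did not pass the test.

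Of 12 genes of retinoid transport and metabolism, CRABP1, a cellular binder of retinoic acid, fell in the average of the lines (-0.70, SE 0.16, adjusted p = 0.0438), where 1.03% of all genes fell, and none was called within a line. The list medians were -0.27 and -0.10. LRAT, which esterifies retinol for storage, was at -0.45 in the average (adjusted p = 0.196), CYP26B1, which degrades retinoic acid, at -1.05 (0.278) and stra6l, of a receptor for Rbp4, at -0.62 (0.287). Among 19 other secreted proteins of yolk layer and liver, itih3a.1, of a heavy chain of a protease inhibitor, fell in line 23095 (-2.13, SE 0.40, adjusted p = 0.0322) and in the average (-1.25, SE 0.27, 0.0314), as did 0.934% and 1.03% of all genes. The call of CRABP1 stayed in 1 of 11 fits with a library left out (without wildtype replicate 1 of line 36433), that of itih3a.1 in line 23095 in 8 and in the average in 5. Without wildtype replicate 1 of line 23095, itih3a.1 was at -1.27 in that line and -0.82 in the average, and neither passed. All 19 were below 0 in line 23095 and 17 in line 36433, against 48% and 52.3% of all genes, with medians of -0.76 and -0.37. The fibrinogen genes FGB (-0.61, adjusted p = 0.0872), fga (-0.51, 0.0973) and FGG (-0.72, 0.101) did not pass in the average, and tfa was at -0.42 in line 36433 (0.846) and -0.24 in line 23095 (0.789).

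Of 14 genes listed as yolk layer regulators, HNF4A, a nuclear receptor of lipid-handling tissues, fell in line 23095 (-1.30, SE 0.29, adjusted p = 0.0471) and in the average (-0.97, SE 0.20, 0.0266), against 0.934% and 1.03% of all genes that fell. It stood at 15.2 and 9.97 CPM in the wildtypes of that line and at 4.89, 5.18 and 5.31 CPM in the mutants, with no overlap. In the average foxa3 also fell (-0.50, SE 0.12, adjusted p = 0.0467) and SOX17 rose (2.05, SE 0.43, 0.0288), where 1.3% of all genes rose, though HNF4A and SOX17 libraries of the genotypes overlapped in line 36433 and line 23095 respectively. With a library left out, the call of HNF4A stayed in 1 of 11 fits in line 23095 (without wildtype replicate 1 of line 36433) and in 6 in the average, that of foxa3 in 2 and that of SOX17 in 4. The paralog hnf4b was at -0.62 (adjusted p = 0.164). The list medians were -0.00 and -0.31. Several genes of this list, foxa3 and SOX17 among them, are also in the list of gut endoderm genes, so it is not particular to the yolk layer.

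**Figure D4:**
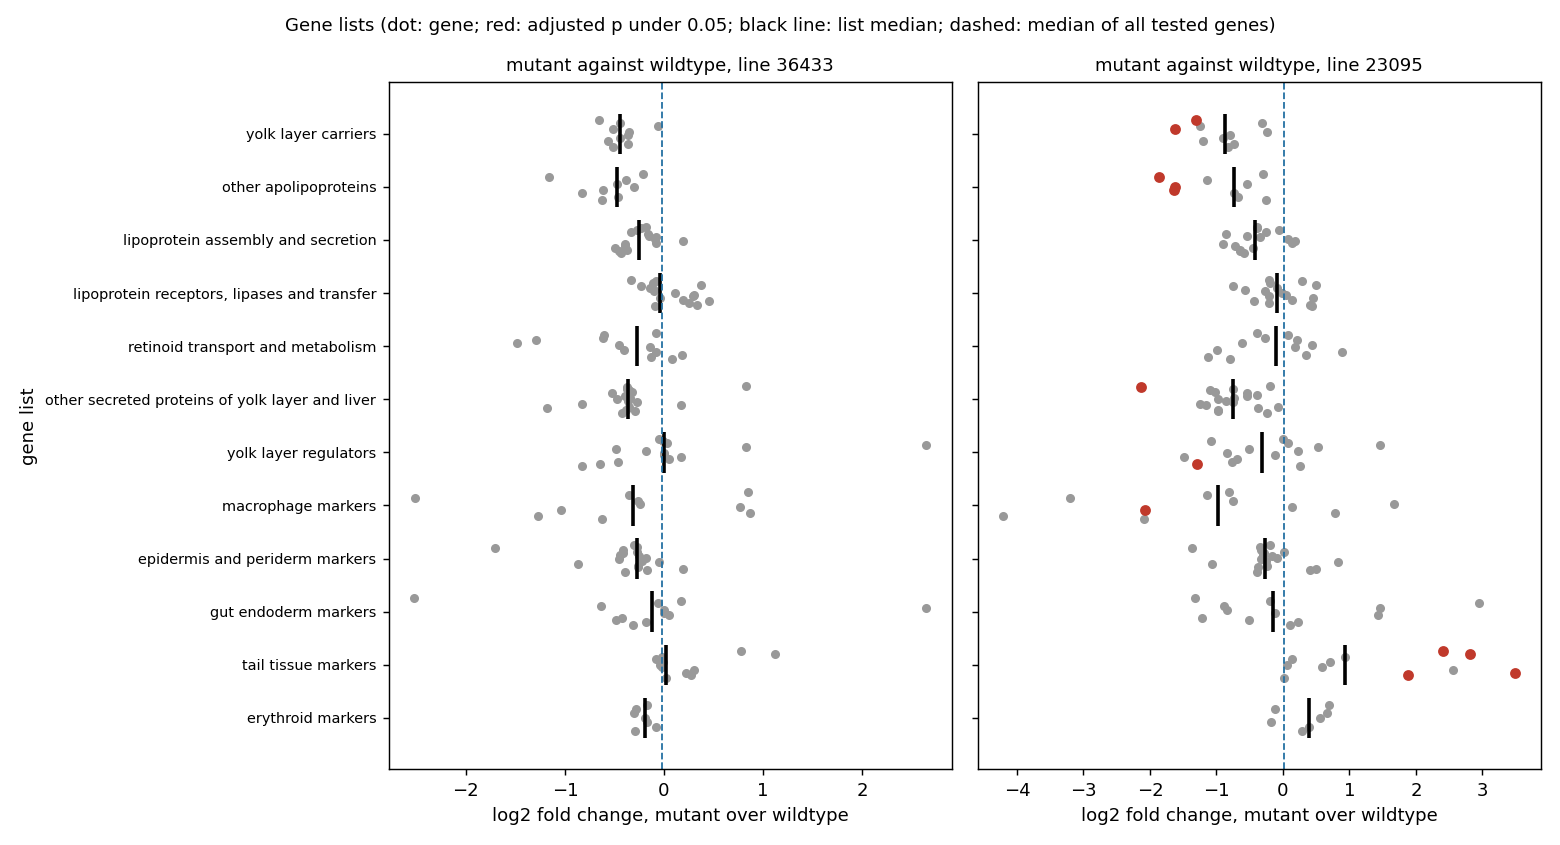
Log2 fold change of mutant over wildtype (horizontal axis) of each tested gene (dot) in 12 gene lists, in line 36433 (left) and line 23095 (right, on a wider scale), with list medians as black lines and the median of all genes dashed. Red dots passed the test, and the medians of the yolk layer carriers are -0.44 and -0.86.

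Markers of other tissues that a cut tail can hold moved with the carrier genes in part. Of 10 macrophage genes, LCP1, a leukocyte actin binder, fell in line 23095 (-2.08, SE 0.37, adjusted p = 0.0256), and LCP1, cxcr3.2 and havcr1 fell in the average (adjusted p = 0.00964, 0.0368 and 0.0490). Of all genes, 0.934% fell in line 23095 and 1.03% in the average. The gene cxcr3.2 was at a low level and did not reach 1 CPM in 3 libraries, the limit of another filter tried. The macrophage list was mixed, with 7 of 10 genes below 0 in each line, against 52.3% (line 36433) and 48% (line 23095) of all genes. In the average 6 were below 0 and 4 above, 1 of the latter under 0.05 before adjustment in edgeR's test. Its medians were -0.31 in line 36433 and -0.97 in line 23095. The LCP1 call of line 23095 stayed in 8 of 11 fits with a library left out, and those of cxcr3.2 and havcr1 in 2. The summed level of the macrophage markers was 17.2 to 22.1 CPM in the mutants and 35.9 to 50.3 CPM in the wildtypes of line 23095, and 23.3 to 30.5 CPM against 29.5 to 40.1 CPM in line 36433. None of the 18 epidermis and periderm genes passed within a line, and krt91 (-0.97, adjusted p = 0.0258) and AGR2 (-1.54, 0.00968) fell in the average, as did 1.03% of all genes. With a library left out, the AGR2 call stayed in 10 of 11 fits and that of krt91 in 5. Of the 18 epidermis and periderm genes, 17 were below 0 in line 36433 and 14 in line 23095, against 52.3% and 48% of all genes. The median of these 18 genes was -0.27 in either line. Their summed level was 22327 to 23134 CPM in the mutants and 27374 to 29083 CPM in the wildtypes of line 23095, and it overlapped in line 36433 (28489 to 33463 and 23140 to 49792 CPM). Wildtype replicate 1 of line 36433 was the lowest library of its line for the epidermis sum, as it was the lowest wildtype for the carrier genes.

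Of 12 gut endoderm genes, VIL1, of a brush border protein, and foxa3 fell in the average (adjusted p = 0.0314 and 0.0467) and SOX17 rose, where 1.03% of all genes fell and 1.3% rose. Both foxa3 and SOX17 are also in the list of yolk layer regulators, so these are the same calls as above. The summed gut level was 136 to 239.8 CPM in the mutants and 208 to 220.5 CPM in the wildtypes of line 23095. In line 36433 it was 201 to 230 CPM in the mutants and 217 to 346 CPM in the wildtypes. The medians of the gut list were -0.12 in line 36433 and -0.16 in line 23095. Of 11 tail tissue genes, her7, mespaa, tbx16 and tbx6, of segmenting mesoderm, rose in line 23095 (log2 fold change 1.88 to 3.49, adjusted p = 0.0322 to 0.0433), as did 0.694% of all genes. The summed level of the list was 352 to 478 CPM in the mutants against 239 to 298 CPM in the wildtypes of that line. In line 36433 the sums overlapped (317 to 383 CPM in mutants, 308 to 362 CPM in wildtypes), and the list median was 0.02. From line 36433 to line 23095 the list median was -1.12 between wildtypes and -0.07 between mutants. No gene of the list was called in either of these contrasts, where 0.393% and 1.13% of all genes were. The rise in line 23095 and the contrast of wildtypes share the wildtypes of line 23095, and their part in the rise was not tested. With a library left out, the calls of her7, mespaa, tbx16 and tbx6 in line 23095 stayed in 6, 6, 7 and 3 of 11 fits. That of VIL1 in the average stayed in 4. No erythroid gene of 7 was called, and the list medians were -0.19 and 0.39. The summed erythroid level was 261 and 1127 CPM in wildtype replicates 1 and 2 of line 23095 and 771 to 1307 CPM in its mutants. In line 36433 it was 990 to 1318 CPM in the mutants and 920 to 1525 CPM in the wildtypes. Wildtype replicate 1 of line 23095 thus had the lowest erythroid sum of all libraries, and also the lowest tail tissue sum (239 CPM). No list had a gene at 0 in all libraries. The part of these tissues in the levels of the carrier genes was not tested.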

How the data were processed

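RNA-seq counts were analysed for 11 zebrafish libraries in 4 groups, which the labels define by line and genotype. The authors deposited raw counts per gene as whole numbers, with no normalization per the file headers. The authors' comparison tables give log2 fold changes and an adjusted p-value per gene, per the file headers. These were used for the 2 comparisons within lines. The submitters' processing notes name the build GRCz11 and, with no role for any, DESeq2 1.22.2, STAR 2.7.2c and cutadapt 1.16. The counting tool is not given in the sources used here, nor is the annotation release, so how reads of close copies (apoa1a and apoa1b, apoea and apoeb, apobb.1 and apobb.2) were divided is unknown. No sequence of these genes was used here. Gene order from RefSeq on another build placed apoeb, apoc1, apoa2 and apoc2 on the same chromosome, with at most 1 gene between neighbours.

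Counts were scaled with TMM, and 20886 of 23617 genes passed filterByExpr (minimum count 10, total 15). The test was edgeR 4.0.16 in R 4.3.3 (glmQLFit, glmQLFTest), two-sided, in a model of 4 group means over 11 libraries with 7 residual degrees of freedom. P-values were adjusted by Benjamini-Hochberg over every gene tested, and genes under 0.05 were called. CPM came from edgeR, and log2 CPM used a prior count of 2. Standard errors came from the F statistic. The scripts were tested on simulated data.

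The genes, the lists, the tests and the rule for naming genes were chosen with earlier results of these data known. The rule named all 10 genes, up to 4 genes of each list with the smallest p in the average of the lines, any called list gene, the 10 genes most alike, and kdm1a. Other genes named as markers (tbxta, MYOD1, HOXB13, tfa, a2ml, MTTP, fabp10a) are list members chosen after their values were seen. Of 207 list symbols, 166 were matched, 69 of them by the symbol of the human ortholog. Symbols are printed as the gene name table gives them. Tried as alternatives were scaling without the 10 genes, by library totals alone or by DESeq2's size factors, other filters, DESeq2 1.42.0, fits restricted to the compared groups, a replicate block, and the omission of each library in turn. A newer edgeR method and a block within each line were chosen after seeing the data. With 1 wildtype of line 23095 omitted, the remaining one was assumed to vary like the other groups.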

Additional observations from a re-analysis of the deposited data

How the results depend on the processing

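Under every alternative run, the 10 genes were below 0 in the comparison within line 23095, in the average and between mutants, and 9 or 10 were in line 36433. Counts of calls were less stable. In line 23095 DESeq2 called 3 of the 10, where 4.77% of all genes were called. None of the 10 was called there with only the groups compared, where 0.0299% of all genes were. The replicate block (0.0431% of all genes) and a block within each line (0.158%) called none either. With 1 library other than a wildtype of line 23095 left out, 0 to 3 were called, against 0.115% to 2.98% of all genes. In the average DESeq2 called 4 (4.82% of all genes), the replicate block 0 (0.517%), and these fits with a library left out 0 to 4 (0.648% to 6.92%). Between mutants DESeq2 called 3 (2.43%), the replicate block 0 (0.306%), and the fits with a library left out 0 to 3 (0.312% to 1.85%). In the other comparisons none was called under any alternative, and the block within each line gives no value between lines of 1 genotype. The cause was not tested. With the replicate block, apoc2 was at -1.65 (adjusted p = 0.192) and rbp4 at -1.37 (0.180) in line 23095. None of the 10 list genes called in that line kept its call with it. With a block within each line, apoa4b.3 alone of them did. Whether the replicate numbers pair the libraries is not settled by these data, and the labels tie a number to no batch. Deviations from the group means correlated at 0.200, 0.0805 and 0.0182 between same-numbered libraries of line 36433. Unlike numbers of that line ran from -0.202 to 0.159. In line 23095 the same-numbered values were -0.0779 and -0.183. They cannot decide it, because the deviations of its 2 wildtypes mirror each other.

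Some signs reversed, all in values that had not passed the test. For apoea in line 36433 the log2 fold change was 0.017 with library totals alone, 0.027 with a block within each line, and -0.44 to 0.25 with 1 library left out. The difference between the lines for apoc1 was -0.35 with the replicate block, -0.39 with a block within each line and -0.35 to 0.36 with 1 library left out, and for apoeb -0.13, -0.11 and -0.10 to 0.40. With 1 library left out, that difference ran from -0.72 to 0.27 for apoa1a, from -0.78 to 0.17 for apoa1b, from -0.82 to 0.0037 for apoba and from -0.78 to 0.0048 for apobb.1, each above 0 without wildtype replicate 1 of line 23095. Between wildtypes it ran from -0.88 to 0.11 for apoa1a and from -0.72 to 0.23 for apoa1b. Library totals alone shifted the median of all genes by 0.124 in line 23095. The 2 wildtype libraries of that line limit every comparison that uses them.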
